A study of Mus musculus with 2 samples.

Results

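Mitochondria carry their own ribosome, the mitoribosome, which translates the few messages of the mitochondrial genome into core subunits of the respiratory chain. Its RNAs are made inside the organelle, whereas its proteins are encoded by nuclear genes, made in the cytosol and imported. The symbols Mrpl and Mrps name the proteins of the large subunit, which forms peptide bonds, and of the small subunit, which reads the message. Some descend from bacterial ribosomal proteins and others were added during the evolution of mitochondria. Macrophages are known to shift between respiration and glycolysis with their state of activation.

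The members were the genes whose symbol begins with Mrpl or Mrps followed by digits, pseudogenes left out, which gave 75 of the 22886 genes in the data. Each stood on 1 row of the deposited values, and the 75 loci lay on 17 chromosomes, with 10 on chromosome 11 and 8 on chromosome 17. The symbols were matched to the structure-based nomenclature of the mitoribosome, with 49 members in the large subunit and 25 in the small subunit. Mrps18a and Mrps30 were counted in the large subunit, where their proteins lie. Mrps36, which links to the 2-oxoglutarate dehydrogenase complex and is no longer counted as a ribosomal protein, was placed in neither. Mrpl53 and Mrps6 were not analysed here.

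The 2 libraries were prepared from polyA RNA of aerobic cells that had been sorted by flow cytometry from tumors of Lewis lung carcinoma (LLC), a mouse lung cancer line, grown under the skin of wild type C57BL/6 mice. One library came from mice injected with vehicle and the other from mice injected with clodronate, an agent that kills phagocytes when given in liposomes. With 1 library per condition, no difference can be set against replicate error, and p-values were not computed. The labels give no dose, time, age, number of pooled animals or sort gate, and a growth protocol among them names EML, a blood progenitor line, against the tumor labels.

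Macrophage markers stood among the highest genes of both libraries, although the labels call the cells tumor cells. The 8 macrophage markers found ranged from 174 to 10534 RPKM (reads scaled to transcript length and to library size) in the vehicle library and from 261 to 11189 RPKM in the clodronate library. All 8 summed to 19424 RPKM with vehicle and 20331 RPKM with clodronate, and 6 were higher with clodronate. Lower were Emr1, with 357 RPKM and 261 RPKM, and Tyrobp, with 2174 RPKM and 1644 RPKM. No epithelial marker passed 6.14 RPKM with vehicle or 6.44 RPKM with clodronate, and 3 of 6 were listed at 0 in both. The 6 fibroblast markers summed to 145 RPKM and 71.4 RPKM, most of it from Dcn (77.3 RPKM and 28.4 RPKM) and Col3a1 (62.1 RPKM and 34.4 RPKM). No other fibroblast marker passed 5.40 RPKM, and Col1a1 and Pdgfrb were higher with clodronate. Endothelial, T and NK cell and progenitor markers did not pass 3.33 RPKM in either library and neutrophil markers did not pass 23.1 RPKM. Of 15 proliferation genes, 8 (53.3%) were at least 2-fold higher in the clodronate library and none was 2-fold lower. Among all genes averaging 1 RPKM or more, 6.95% were 2-fold higher. Birc5 had the widest difference, with 2.81 RPKM and 27.1 RPKM. Pcna, the most abundant of the 15, was slightly lower with clodronate at 176 RPKM and 167 RPKM, as was Tyms at 3.55 RPKM and 3.14 RPKM. The part of these shifts in the values below was not tested. In bulk RNA, fewer cells of a type and less RNA per cell cannot be told apart.

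All 75 members were measured in both libraries at a middling level. Their median was 18.0 RPKM in the vehicle library and 18.1 RPKM in the clodronate library, which is percentile 64.4 and 63.6 of the 10982 genes kept, those whose 2 values averaged 1 RPKM or more. None was listed at 0, and all 75 were among the genes kept. The range ran from 0.215 to 301 RPKM with vehicle and from 1.99 to 208 RPKM with clodronate. The summed RPKM was 2586 with vehicle and 2031 with clodronate, a difference of -21.5%, beside -0.92% over all genes kept. The medians were alike while the sums were not, and the most abundant members were lower with clodronate. Across the 75 genes, which share 2 libraries, log2 levels in both libraries correlated with a Pearson r of 0.85 and a Spearman rho of 0.84.

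**Figure D1:**
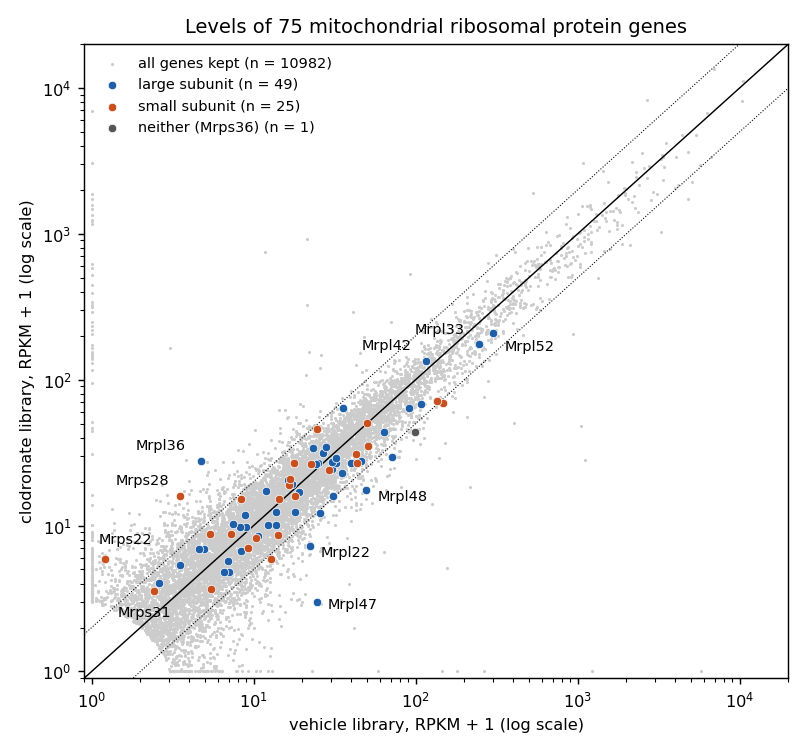
Level of each member in the vehicle library (x axis) and in the clodronate library (y axis), as RPKM + 1 on log scales, coloured by subunit over all 10982 genes kept in grey. The solid line marks equal levels and the dotted lines a 2-fold ratio; Mrpl47 and Mrpl36 lie farthest from equality, on opposite sides.

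Mrpl52, a mitochondria-specific protein of the large subunit, had the highest level, with 301 RPKM in the vehicle library and 208 RPKM in the clodronate library. Mrpl33, the counterpart of a small bacterial protein, followed with 246 RPKM and 173 RPKM. These 2 genes alone held 21.1% of all member RPKM with vehicle and 18.8% with clodronate. Mrpl42 stood at 115 RPKM and 134 RPKM, Mrps21 at 147 RPKM and 68.5 RPKM. Mrps18c was listed at 134 RPKM and 70.8 RPKM, and Mrpl24 at 107 RPKM and 67.2 RPKM. Of these 6 genes, Mrpl42 alone was higher in the clodronate library. The 10 most abundant members held 52.9% of member RPKM with vehicle and 44.2% with clodronate, and 9 of the 10 were lower with clodronate.

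The lowest mean levels belonged to Mrps31, with 1.42 RPKM in the vehicle library and 2.53 RPKM in the clodronate library, and to Mrpl19, with 1.62 RPKM and 3.06 RPKM. Mrps22 was listed at 0.215 RPKM and 4.92 RPKM, and Mrpl1 at 2.50 RPKM and 4.396 RPKM. Mrps35 had 4.45 RPKM and 2.68 RPKM, and Mrpl44, whose protein has the fold of an RNase III enzyme, had 5.53 RPKM and 3.79 RPKM. The first 4 of these 6 were higher with clodronate and the last 2 lower. Most proteins of a mitoribosome are present as a single copy, and the mRNA levels per length spanned a wide range within each subunit.

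Members differed between the libraries in both directions, and the median ratio of the set was small. The difference of a gene is given as the log2 ratio of clodronate RPKM + 1 over vehicle RPKM + 1, where 1 or -1 is a 2-fold difference and the added 1 RPKM understates the ratio of low genes. The ratio was above 0 for 33 members and below 0 for 42, so 44.0% were above 0, against 51.6% of all genes kept. The median log2 ratio was -0.19, against 0.02 over all genes kept. The middle 50% of the members lay between -0.55 and 0.30, a width of 0.85, beside a width of 0.78 for all genes.

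At least 2-fold higher were 3 members, or 4% of the 75, where 6.95% of all genes kept were called in that direction. At least 2-fold lower were 8 members, or 10.7%, where the background was 6.77%. At 1.5-fold, 11 members (14.7%) were higher beside 16.6% of all genes, and 15 members (20%) were lower beside 16.3%. At 3-fold, 3 members (4%) were higher beside 2.86%, and 2 members (2.67%) were lower beside 2.32%. At 1.5-fold and 2-fold the members thus stood below the background among higher genes and above it among lower genes, and at 3-fold slightly above it in both directions, each time by a few genes.

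**Figure D2:**
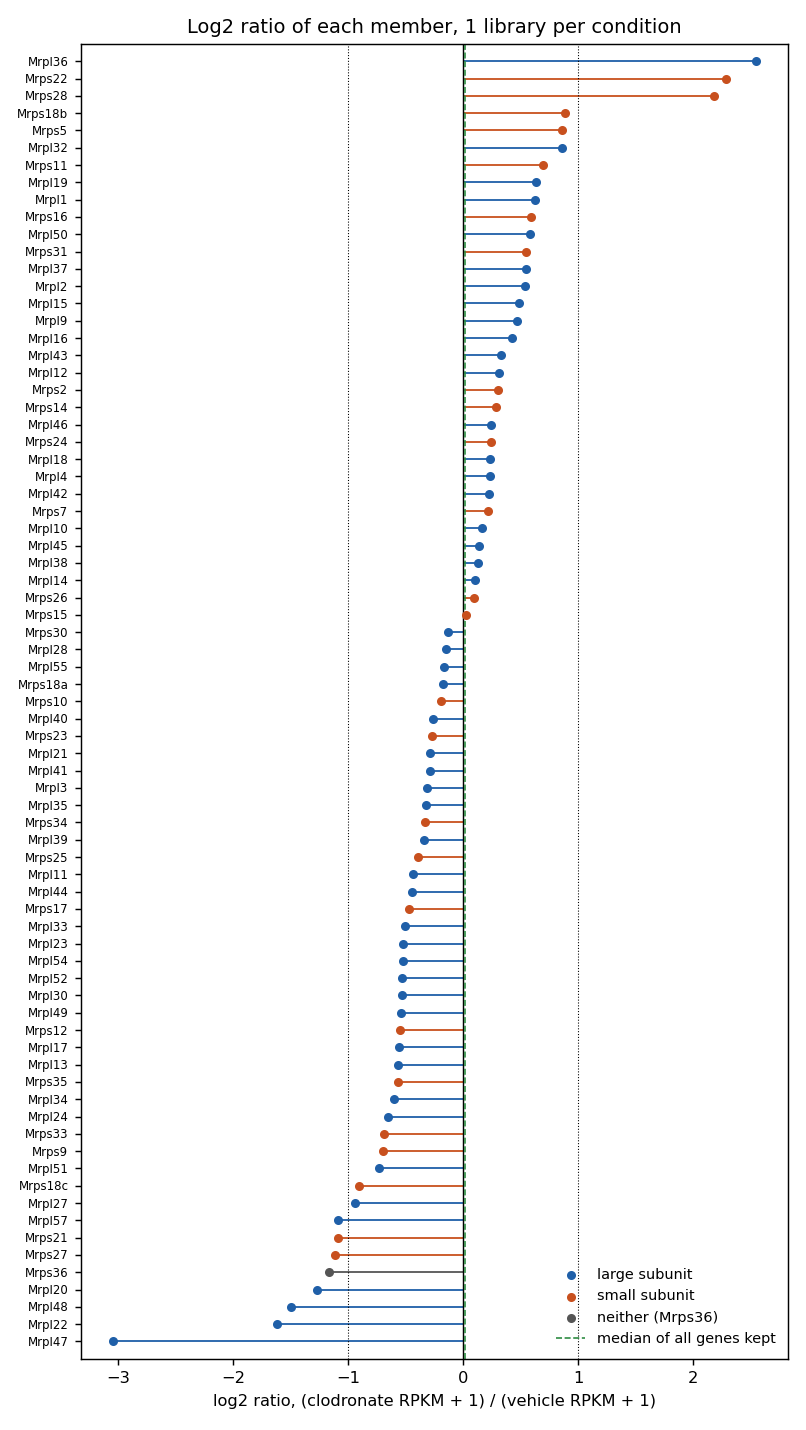
Log2 ratio of clodronate over vehicle (x axis) of each of the 75 members, ordered from highest to lowest and coloured by subunit, with 1 library per condition. Dotted lines mark 2-fold and the dashed line the median of all genes kept; 33 members lie above 0 and 42 below, and 3 members at the top and 1 at the bottom stand apart from the run of the others.

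The 3 members that were at least 2-fold higher were also past 3-fold, and all were low in the vehicle library. Mrpl36, a small zinc-binding protein of the large subunit with a bacterial counterpart, was listed at 3.74 RPKM with vehicle and 26.7 RPKM with clodronate, a log2 ratio of 2.55. Mrps22, a mitochondria-specific protein of the small subunit that is mutated in a human mitochondrial disease, had 0.215 RPKM and 4.92 RPKM, a log2 ratio of 2.28. Mrps28, the mitochondrial relative of the bacterial S1 protein, had 2.52 RPKM and 14.9 RPKM, a log2 ratio of 2.18. No other member reached a log2 ratio of 1. The log2 ratio of Mrps22 ran from 2.25 to 3.99 over the other settings tried, since its vehicle level lay below the added 1 RPKM.

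The next 5 members in order were higher by less than 2-fold. Mrps18b had 23.7 RPKM and 44.7 RPKM (log2 ratio 0.89). Mrps5, which lies at the entry of the message into the small subunit, had 7.37 RPKM and 14.2 RPKM (0.86). Mrpl32, which matures only after cleavage by the m-AAA protease of the inner membrane, had 34.4 RPKM and 63.4 RPKM (0.86). Mrps11 had 4.41 RPKM and 7.73 RPKM (0.69), and Mrpl19 had the 1.62 RPKM and 3.06 RPKM given above (0.63). Mrps11 and Mrpl46 are neighbours on chromosome 7, with 41 bases between their loci in the mm9 coordinates of the files. Mrpl46 had 7.29 RPKM and 8.83 RPKM, a log2 ratio of 0.24, so both neighbours lay above 0.

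Mrpl47 showed the widest difference of all members. This counterpart of bacterial L29, at the end of the tunnel through which the new protein leaves the ribosome, had 23.7 RPKM in the vehicle library and 1.99 RPKM in the clodronate library, 11.9-fold less RPKM and a log2 ratio of -3.04. Its locus lies at chr3:32626418-32635677 in mm9. Mrpl22, another protein of the tunnel, had 21.2 RPKM and 6.25 RPKM (-1.62). Mrpl47 and Mrpl22 were the 2 members that were at least 3-fold lower. With vehicle they stood at percentiles 71.6 and 68.9 of the genes kept, and with clodronate at percentiles 10.6 and 33.3.

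The other 6 members past 2-fold lower came from different places in the ribosome. Mrpl48 of the large subunit's central protuberance had 48.7 RPKM and 16.6 RPKM (-1.50). Mrpl20, which joins the large subunit early in its assembly, had 70.2 RPKM and 28.5 RPKM (-1.27). Mrps36 had 97.4 RPKM and 42.8 RPKM (-1.17), and Mrps27, an RNA-binding pentatricopeptide repeat protein, had 11.8 RPKM and 4.92 RPKM (-1.12). Mrps21 had 147 RPKM and 68.5 RPKM (-1.09), and Mrpl57, a short mitochondria-specific protein, had 24.8 RPKM and 11.2 RPKM (-1.09). Correction for transcript length left 6 members past 2-fold lower, with Mrps21 at -0.91 and Mrps36 at -0.98. Correction for GC content and length left 5, with Mrpl57 at -0.98 as well. Under these 2 corrections, 6.52% and 5.75% of all genes were lower. Mrpl48 and Mrps27 are 2 of 7 members whose locus in the files is shared with another gene, for Mrpl48 the gene Rab6a. Without those 7 members the counts were 3 higher (4.41%) and 6 lower (8.82%) of 68, beside 6.95% and 6.76% of all genes. The median log2 ratio of the 68 was -0.16.

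Both subunits held members on either side of 0. In the large subunit, 1 member (2.04%) was at least 2-fold higher and 5 (10.2%) lower, beside 6.95% and 6.77% of all genes kept. This subunit had 20 members above 0 and 29 below, and a median log2 ratio of -0.26. Its median level was 23.3 RPKM with vehicle and 18.3 RPKM with clodronate. In the small subunit, 2 (8%) were at least 2-fold higher and 2 (8%) lower. This subunit had 13 members above 0 and 12 below, with a median of 0.02. Its median level was 15.4 RPKM and 14.9 RPKM. The sign of the small subunit median was not stable, since it was -0.15 when the subunit was read from the symbol and -0.086 over members averaging 5 RPKM or more. The summed RPKM differed by -20.03% in the large and by -20.31% in the small subunit, so the subunits did not part by this measure.

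Origin of the protein gave no clear split either. The 45 members with a bacterial counterpart had 22 above 0 and 23 below, with 2 (4.44%) at least 2-fold higher and 4 (8.89%) lower. Their median log2 ratio of -0.15 became 0.033 after a correction for transcript length. The 29 mitochondria-specific members had 11 above 0 and 18 below, with 1 (3.45%) higher, 3 (10.3%) lower and a median of -0.27. For comparison with both groups, 6.95% of all genes kept were at least 2-fold higher and 6.77% lower. The 15 small subunit members with a bacterial counterpart had a median of 0.22 with 9 above 0. The 10 mitochondria-specific ones of that subunit had a median of -0.30 with 4 above 0.

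By place in the ribosome, values differed among proteins of the same region, which are named here after their values were seen. Other than Mrpl47 and Mrpl22, none of the following proteins near the exit of the tunnel reached 2-fold. Mrpl24 had 107 RPKM and 67.2 RPKM (-0.66), Mrpl17 had 6.06 RPKM and 3.80 RPKM (-0.56), and Mrpl23 had 90.2 RPKM and 62.7 RPKM (-0.52). Mrpl32 had the 34.4 RPKM and 63.4 RPKM given above (0.86), and Mrpl45, which faces the inner membrane, had 7.95 RPKM and 8.82 RPKM (0.13). Of the stalk that recruits translation factors, Mrpl12 had 26.9 RPKM and 33.5 RPKM (0.31), and at its base Mrpl10 had 16.2 RPKM and 18.3 RPKM (0.17) and Mrpl11 had 12.6 RPKM and 9.09 RPKM (-0.44). Mrps12 of the decoding centre had 49.95 RPKM and 33.8 RPKM (-0.55).

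The 3 genes descended from one bacterial S18 gene differed in direction. Mrps18b had 23.7 RPKM with vehicle and 44.7 RPKM with clodronate (0.89), Mrps18c had 134 RPKM and 70.8 RPKM (-0.91), and Mrps18a had 29.5 RPKM and 26.1 RPKM (-0.17). Mrps18c was the highest of the 3 in both libraries, and neither Mrps18b nor Mrps18c reached 2-fold as measured. With a correction for transcript length Mrps18b passed 2-fold, at 1.08, and the sign for Mrps18a turned to 0.013. This correction made 4 members higher, beside 6.93% of all genes.

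Members with a higher mean level tended to have a lower ratio. In the 25 members with the highest mean level, 28.2 to 254 RPKM, 18 were below 0 and the median log2 ratio was -0.52, while 2410 genes of the same levels had a median of 0.02. The middle 25 had a median of -0.13 with 12 above 0, beside 0.05 for 2844 genes of the same levels. In the 25 with the lowest, 1.97 to 10.8 RPKM, 14 were above 0. Their median was 0.24, beside 0.01 for 4294 genes. Over the 75 members the Spearman rho of mean level with the log2 ratio was -0.36, against 0.004 over all genes. Short members were also the abundant ones, with a rho of length and mean level of -0.53, against -0.13 over all genes.

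The 25 shortest members, with transcripts of 405 to 1031 nt, had medians of 42.2 RPKM and 26.7 RPKM and a median log2 ratio of -0.52, and 7 were above 0. All 816 genes of those lengths had a median of -0.20, so short genes in general were lower, though by less. The middle 25 members, 1048 to 1764 nt, had a median of 0.17 with 14 above 0, beside -0.07 for 1735 genes. The longest 25, 1849 to 7300 nt, had a median of -0.13 with 12 above 0, beside 0.05 for 7371 genes. The medians of the members did not run in order of length, and the rho of length with the log2 ratio was 0.18 over the members and 0.084 over all genes. GC content followed the ratio with a rho of 0.24 over all genes and 0.042 over the members. The part of length and of level in the members' values was not tested.

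**Figure D3:**
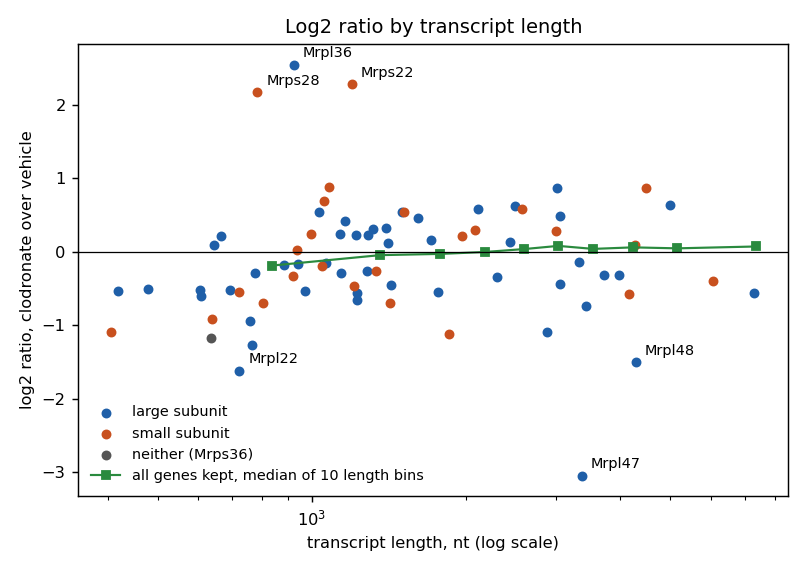
Log2 ratio of clodronate over vehicle (y axis) against transcript length in nt on a log scale (x axis) for the 75 members, coloured by subunit, with squares for the median of all genes kept in 10 length bins. The shortest members sit mostly below 0, where the line of all genes is also lowest, while Mrpl47 and Mrpl48 are long and low.

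The promoters of the members carried motifs of 3 factors known to act at genes of mitochondrial proteins: ETS factors such as GABPA, NRF1 and YY1. RefSeq promoter sequence of build GRCm38.p6, from 250 bases before to 50 after each gene start, was found for 66 members with 72 promoters and searched on both strands. The ETS letters CCGGAAGT were in 12 of the 72 promoters (16.7%), beside 3.89% of all 32851 promoters and 5.15% of those of protein-coding genes. The NRF1 letters GCGCATGC were in 8 (11.1%), beside 2.71% and 3.52%. The YY1 letters AAGATGGC were in 12 (16.7%), beside 2.75% and 3.05%. The E-box letters CACGTG, which read the same on both strands and are bound by MYC among others, were in 7 (9.72%), beside 7.15% and 7.84%. Several of these 7 were promoters of Mrpl2 that held the same site, and by gene the E-box was in 5 of the 66 members. None of these 4 motifs contains another.

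At least 1 of the ETS, NRF1 and YY1 motifs was in 29 of the 72 promoters (40.3%), beside 8.83% of all promoters and 10.99% of protein-coding ones. The share was 31.1% for cytosolic ribosomal proteins and 32.4% for oxidative phosphorylation subunits. Among member genes, the ETS motif lay before the gene start in 10 of 12 and the NRF1 motif in 8 of 8, while the YY1 motif lay after the start in 8 of 12.

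The windows below hold the ETS motif, in capitals, in 30 bases of the promoters of members with an extreme ratio or level. They are printed 5′ to 3′ on the strand of the gene.
Mrps22, chr9:98601672-98601701, minus strand: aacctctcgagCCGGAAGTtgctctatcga
Mrpl48, chr7:100583147-100583176, minus strand: gggttttaaaaACTTCCGGaaccaagatgc
Mrps27, chr13:99344726-99344755, plus strand: gtggtaggaccACTTCCGGcggaggcgggc
Mrpl52, chr14:54426899-54426928, plus strand: gggccacgcccACTTCCGGttcccttgctc
Mrps18c, chr5:100798591-100798620, plus strand: cgggtcacgtgACTTCCGGcccgggaagcg

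The NRF1 motif is in capitals in the next windows, chosen in the same way. The window of Mrpl33 runs on into an ETS motif.
Mrpl22, chr11:58171620-58171649, plus strand: ggcctcggactGCGCATGCgtatagtcagc
Mrpl32, chr13:14613106-14613135, minus strand: ctttgacccttGCGCATGCgcaagaggggc
Mrpl33, chr5:31613928-31613957, plus strand: taccggaacccGCGCATGCcccggaagtag
Mrps18b, chr17:35916645-35916674, minus strand: aacggcccgacGCATGCGCactgggagcac

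The YY1 motif is in capitals in the last windows, of the member with the highest ratio, an S18 paralog and the gene next to Mrpl46.
Mrpl36, chr13:73330968-73330997, plus strand: cgtgaccttacGCCATCTTtcttcctggcg
Mrps18a, chr17:46111004-46111033, plus strand: aggtgcgttccAAGATGGCggccctcaggg
Mrps11, chr7:78783013-78783042, plus strand: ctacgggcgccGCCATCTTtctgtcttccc

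Members with the same motif did not share a direction. The ETS motif stood before both Mrps22, with a log2 ratio of 2.28, and Mrpl48, with -1.50. The 12 members with an ETS motif had a median log2 ratio of -0.52 with 4 above 0, and the 54 without had -0.17 with 24 above 0. With NRF1 the medians were -0.09 for 8 members and -0.23 for 58. With YY1 they were 0.22 for 12 members, 7 above 0, and -0.28 for 54 members, 21 above 0. With the E-box they were 0.54 for 5 members, 3 above 0, and -0.26 for 61. A match of letters is a description of the promoter and not a binding site. The factor genes Gabpa, Nrf1, Yy1 and Myc differed by less than 2-fold. Gabpa had 10.3 RPKM and 8.68 RPKM (-0.22), and Nrf1 had 6.97 RPKM and 12.4 RPKM (0.75). Yy1 had 24.6 RPKM and 23.7 RPKM (-0.05), and Myc had 22.7 RPKM and 44.7 RPKM (0.95).

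Proteins of the mitoribosome whose symbols do not begin with Mrpl or Mrps lay on both sides of 0 and within 2-fold. Of 6 found, 3 were above 0 and 3 below, with a median log2 ratio of 0.01. Dap3, a GTP-binding protein of the small subunit, had 7.20 RPKM and 9.66 RPKM (0.38), and Ptcd3, a pentatricopeptide repeat protein, had 5.52 RPKM and 8.59 RPKM (0.56). Ict1, a peptidyl-tRNA hydrolase built into the large subunit, had 16.3 RPKM and 19.3 RPKM (0.23). Chchd1 had 46.3 RPKM and 39.7 RPKM (-0.22), Aurkaip1 had 34.1 RPKM and 25.1 RPKM (-0.43), and Gadd45gip1 had 12.8 RPKM and 8.07 RPKM (-0.61).

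Among genes that serve the mitoribosome, the translation factors had the largest share past 2-fold lower of the lists compared. Of 14 factors kept, 6 (42.9%) were at least 2-fold lower, beside 6.77% of all genes kept. At least 2-fold higher was 1 (7.14%), beside 6.95%, while 11 were below 0 and the median log2 ratio was -0.28. Mtrf1l, a release factor that ends translation, had 3.93 RPKM and 0.257 RPKM (-1.97), and Mtif2, the initiation factor that brings the first tRNA, had 8.50 RPKM and 2.97 RPKM (-1.26). Lrpprc, which stabilises mitochondrial messages, had 3.47 RPKM and 8.31 RPKM (1.06), and Guf1 had 2.25 RPKM and 3.16 RPKM (0.36). Most of these levels were low, with a median over the 14 of 5.73 RPKM and 3.64 RPKM.

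For assembly and rRNA factors, 2 of 22 (9.09%) were at least 2-fold higher and 1 (4.55%) lower, beside 6.95% and 6.77% of all genes kept. Of the 22, 12 were above 0, and the median was 0.39. The pseudouridine synthase Rpusd4 had 1.27 RPKM and 4.91 RPKM (1.38), and the rRNA methyltransferase Ftsj2 had 2.63 RPKM and 6.95 RPKM (1.13). The methyltransferase Mrm1 had 7.69 RPKM and 2.85 RPKM (-1.17), and the GTPase Mtg2 had 9.998 RPKM and 5.17 RPKM (-0.83). Of 16 mitochondrial tRNA synthetases, which load amino acids onto tRNA, 2 (12.5%) were higher and 1 (6.25%) lower, beside the same background. Their median was 0.08. Fars2 had 2.88 RPKM and 9.35 RPKM (1.42), Iars2 had 7.39 RPKM and 17.9 RPKM (1.17), Mars2 had 3.11 RPKM and 1.26 RPKM (-0.86), and Cars2 had 11.7 RPKM and 4.26 RPKM (-1.27).

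None of 10 regulators of mitochondrial DNA and biogenesis reached 2-fold, and their median log2 ratio was 0.27. Myc had 22.7 RPKM and 44.7 RPKM (0.95), and Tfam, which packs mitochondrial DNA, had 2.52 RPKM and 1.87 RPKM (-0.30). The messages and rRNAs of the mitochondrial genome, the other partner of these proteins, were not analysed here.

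**Figure D4:**
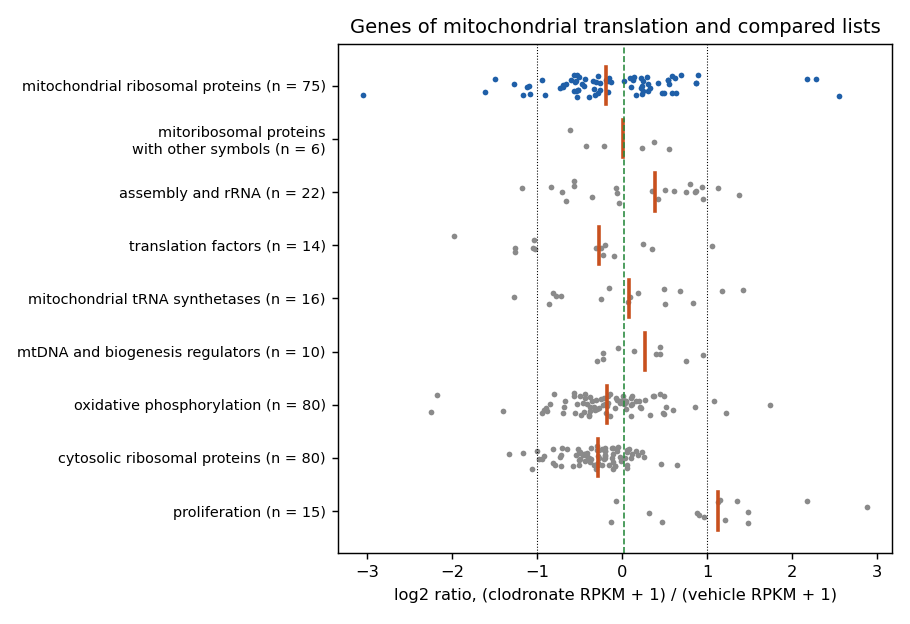
Log2 ratio of clodronate over vehicle (x axis) of each gene that averaged 1 RPKM or more, by gene list (rows, points spread vertically at random). Short orange bars mark the list median, dotted lines 2-fold and the dashed line the median of all genes kept; the members spread more widely than the cytosolic ribosomal proteins, around a median of -0.19.

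Next to the cytosolic ribosomal proteins and the nuclear subunits of oxidative phosphorylation, the members had a similar median and a wider spread. The 80 cytosolic ribosomal proteins kept had a median log2 ratio of -0.28 with 14 above 0 and 66 below, and the middle 50% spanned 0.40, against 0.85 for the members. Of these, 4 (5%) were at least 2-fold lower and none was higher, beside 6.77% and 6.95% of all genes kept. The 80 oxidative phosphorylation subunits had a median of -0.17 with 31 above 0 and 49 below, and a span of 0.55. Of the 80, 3 (3.75%) were at least 2-fold higher and 3 (3.75%) lower. Their levels were far above those of the members, with medians over the genes kept of 817 RPKM and 642 RPKM for the cytosolic ribosomal proteins and of 111 RPKM and 95.1 RPKM for oxidative phosphorylation. The summed RPKM over all genes found differed by -25.5% for the cytosolic ribosomal proteins and by -19.7% for oxidative phosphorylation, beside -21.5% for the members. The difference in spread was not tested, since genes are not replicates.

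At the ends of those lists, Rpl39 had 5057 RPKM and 2249 RPKM (-1.17), Rpl18 had 330 RPKM and 455 RPKM (0.46), and Rps4l had 3.34 RPKM and 5.78 RPKM (0.64). Ndufb2 of complex I had 138 RPKM and 28.2 RPKM (-2.25), and Atp5g3 of the ATP synthase had 936 RPKM and 206 RPKM (-2.18). Cox6b2 had 5.07 RPKM and 13.1 RPKM (1.22), and Cox6a2 was listed at 0 with vehicle and at 2.34 RPKM with clodronate. No mitochondrial ribosomal protein gene was listed at 0, and Mrpl47 was the member with a ratio lower than that of Ndufb2.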

How the data were processed

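The authors deposited RPKM values for 23170 loci in each of 2 libraries, 1 per condition. Per the submitters' processing notes, CASAVA 1.8.2, TopHat2 2.0.9, Bowtie 0.12.9, Cufflinks 2.2.1 and Cuffdiff were used with build mm9; their settings are not given in the sources used here. The paper of the series does not describe this experiment. Read totals are not in the values, so depth is unknown and no interval or floor was computed.

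Rows of the same symbol were summed to 22886 genes, and 26 symbols that had become numbers were replaced by the RefSeq accession. Log2 ratios used a pseudocount of 1 RPKM over the 10982 genes averaging 1 RPKM or more, and genes were called at 2-fold. GENCODE M21 transcripts, matched by RefSeq accession, gave length and GC content for 98.7% of genes kept and 75 of 75 members. For some members this length exceeded the mm9 locus of the gene. Computations used Python 3.11.15, pandas 2.3.3, numpy 2.4.6 and scipy 1.17.1, and were tested on simulated data.

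Members and gene lists were chosen with earlier results of these data known. Full values are given for the 8 highest and 8 lowest log2 ratios, the 6 highest and 6 lowest mean levels, members at 0, the 3 Mrps18 genes and mitoribosomal proteins with other symbols; of other lists, the 2 highest and 2 lowest ratios, of which 1 gene is not reported here. Other genes named were chosen after their values were seen. Alternatives were another pseudocount, low-value filter, scaling, fold, subunit assignment and row choice, corrections for length and GC content, and leaving out shared loci.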

Additional observations from a re-analysis of the deposited data

How the results depend on the processing

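No paired analysis was possible because the labels give 1 library for each condition and no replicate numbers. The members' median log2 ratio stayed below 0 under every alternative, from -0.27 to -0.10, as did that of the large subunit, from -0.32 to -0.17. Summing rows or taking the highest row, and dropping the filter, changed no member and say nothing about stability. The correction for GC content and length, the removal of shared loci and the minimum of 10 RPKM were chosen after seeing the data.

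At 1.5-fold, 11 members were higher with clodronate (14.7%, beside 16.6% of all genes kept) and 15 lower (20%, beside 16.3%). At 3-fold, 2 were lower (2.67%, beside 2.32%). Among the 53 members averaging at least 10 RPKM, 1 was at least 2-fold higher (1.89%) and 7 lower (13.2%). Of all 5913 genes at that level, 3.42% were higher and 3.62% lower. After correction for GC content and length 5 members were lower, beside 5.75% of all genes. The small subunit median turned to -0.086 over members averaging at least 5 RPKM or at least 10 RPKM, to -0.040 with libraries scaled to the same upper quartile, and to -0.15 with subunits read from the symbol. The median of members with a bacterial counterpart turned to 0.033 with length correction and to 0.044 with GC content and length correction. The median of mitochondria-specific members was -0.15 without shared loci. Of 299 values of 32 named genes under 10 settings, 297 kept their sign, the exceptions being Mrps18a at 0.013 with length correction and Chchd1 at 0.099 with GC content and length correction. Only centring on the median, scaling to the same upper quartile and the corrections for length and GC content could turn a gene's sign. The other settings kept it by construction, so the 297 do not measure stability. The causes were not tested. With 1 library per condition, neither replicate error nor depth is known, and differences of low members such as Mrps22 and Mrps31 are the least certain.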
